A study of Mus musculus with 2 samples.

Results

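The regions described here are the autosomal stretches of the array that gave the brightest signal with DNA from control-litter mice: 948 of 18959 autosomal regions, the top 5% by control signal. A region is a set of at least 2 array probes whose starts lie at most 500 bp apart. Its control signal is the mean, over its probes and both arrays, of the log2 processed signal in the channel that carried control DNA. The members hold 4099 of the 85002 probes in autosomal regions. Because control signal chose them, their brightness is a description and no test is made of it.

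The material was hypothalamic DNA of female FVB/NJ mice at postnatal day 180 (P180). The compared mice grew up either in small litters of 4 pups (SL), which overfeeds sucklings, or in control litters of 9 pups (C). All animals shared strain, sex and age, and no transgene or drug is named in the labels. Each labelled sample was a pool of 5 hypothalami, with 2 pools and 10 hypothalami per group, so the spread between single animals cannot be seen. SL and C were hybridised together on 2 arrays of 1 slide: array 1 had SL in Cy5 and C in Cy3, and array 2 had the dyes exchanged. The labels do not say which pool lay on which array. The p-values below therefore rest only on spread between these arrays, which may be technical. The fit pools this spread largely over all regions, so they say little about the spread of a single region. With 2 arrays the smallest p that an exact sign-flip test (two-sided) allows is 0.5. Whole hypothalamus holds neurons and glia of many kinds, and a DNA array cannot check the tissue against expressed markers.

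DNA methylation is the addition of a methyl group to cytosine, in mammals mostly where a guanine follows. Promoter CpG islands are mostly free of it in body cells, whereas imprinted control regions, promoters of germ-line genes and many islands inside genes or between genes are known to carry it in brain and elsewhere. The method used here reads it with a pair of enzymes that cut the same site, CCCGGG. SmaI cuts the unmethylated site and leaves blunt ends; XmaI then cuts what is left and leaves overhangs to which adaptors join, so PCR favours fragments with both ends methylated. A bright region is thus a candidate for methylated ends, but the number of copies of a fragment in the genome, its amplification in PCR and the properties of its probes also enter the signal, and these cannot be told apart here. The probes are placed on mouse build mm8 without gene names or probe sequences, and no genome of that build was used here, so regions are given by position and no gene, exon or CCCGGG site is assigned.

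The members form the upper end of a continuous range. The threshold was a mean log2 control signal of 14.11, or a signal of 17656. The median member reached 21191, which is 15.3 times the median of all autosomal regions, 1381. On array 1 the members' control signal ran from 16261 to 55702 with a median of 23021, and on array 2 from 12751 to 62414 with a median of 19936. The medians over all autosomal regions were 1813 and 1068. Every member probe was well above background in both channels of both arrays, and no genomic probe was saturated. Of the members, 821 were in the top 5% on array 1 alone and 838 on array 2 alone.

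**Figure D1:**
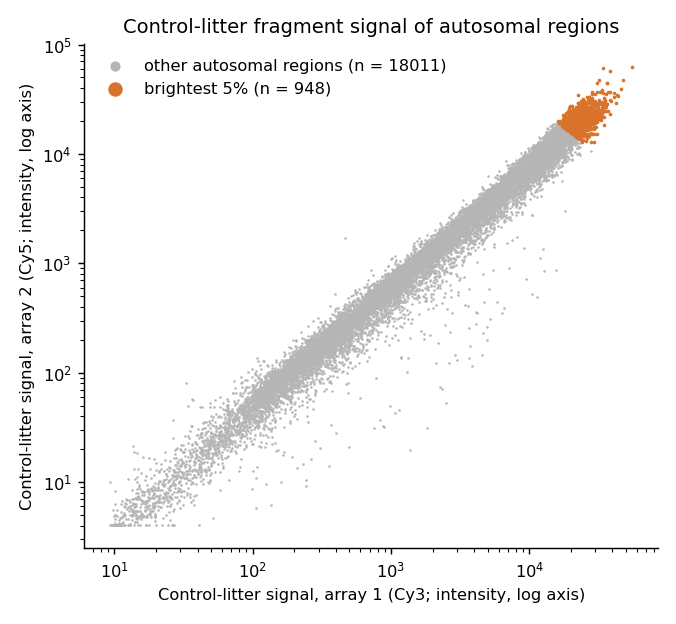
Control-litter signal of each autosomal region on array 1 (x axis, Cy3) and array 2 (y axis, Cy5), in units of intensity on log axes. The 948 members (orange) sit at the top right end of the cloud, between 16261 and 55702 on array 1.

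Regions at the threshold were not set apart from their neighbours in rank. The last members were chr11:59143284-59143785, with control signals of 18196 and 17138 on arrays 1 and 2, chr15:72790924-72791292, with 21048 and 14813, and chr4:133943353-133944209, with 18116 and 17208. The first regions outside were chr7:24631219-24632218, with 19090 and 16323, chr2:27681345-27682113, with 18723 and 16643, and chr13:109431494-109431698, with 17096 and 18208. Signal therefore runs on without a gap across the threshold.

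At the other end of the list the signals spread out. The brightest was chr17:39452570-39452883, with 3 probes, control signals of 55702 on array 1 and 62414 on array 2, and SL signals of 124017 and 34987. It was followed by chr4:63381950-63382323, with control signals of 48014 and 47099 and SL signals of 68307 and 35966. The long region chr3:93368485-93371415, with 16 probes, had 38492 and 56707 in C and 111547 and 26246 in SL. In each of these 3 regions Cy5 read higher than Cy3: SL was the brighter DNA on array 1 and C on array 2.

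The rest of the 8 brightest members repeated this pattern, 1 of them only weakly on array 1. On chromosome 13, chr13:65761234-65761582 gave control signals of 34162 and 61406 against SL signals of 112440 and 33491. On the same chromosome chr13:65675781-65676439 gave 36638 and 44788 in C against 94427 and 26723 in SL. The region chr6:47577386-47577711 gave 36703 and 44069 in C against 71014 and 31743 in SL, and chr3:93375397-93378237 gave 32123 and 47156 against 81311 and 25283. The weakest case among the 8 brightest was chr4:62261374-62261762. There array 1 read nearly alike for C (45982) and SL (47734), and array 2 read 39379 for C and 28842 for SL.

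Members differed from autosomal regions as a whole in the makeup of the region. The rule used this makeup only to form regions (at least 2 probes, starts at most 500 bp apart) and not to rank them. They were compact: 737 of 948 (77.7%) held exactly 4 probes, against 46.9% of all autosomal regions, and 5.27% held 2 probes, against 16.6%. Their median length was 470 bp (quartiles 348 and 625), against 558 bp (341 and 892), and their probes started a median of 153 bp apart, against 200 bp. Regions with 8 or more probes made up 8.33% of members and 13.1% of all. The next 5% by control signal shared much of this makeup. There 69.1% held 4 probes, 5.17% held 2 and 12.3% held 8 or more, with a median length of 511 bp and a spacing of 159 bp. Regions are not replicates, so no p is given. The members with most probes were chr15:88983861-88988477 with 20 and chr11:58821112-58822984 with 19, followed by 5 members with 16 each, among them chr3:93368485-93371415.

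Probe length differed too. The array uses probes of 45 to 60 bases. The 60-base class made up 10.9% of member probes, 24.1% of probes in all autosomal regions and 67.4% of probes in the 948 dimmest regions, while the 45-base class made up 36.5%, 37.5% and 6.60%. In the next 5% by control signal the 60-base class made up 16.2% and the 45-base class 31.1%. Members were most frequent among regions of mean probe length over 49 up to 51 bases, at 9.09% of 2309 regions. They were rarest at over 56 bases, with 0.830% of 4940 regions, and also rare where all probes had 45 bases, with 2.32% of 1941. The share of members was thus highest at middle probe lengths and low at both ends. The median log2 control signal of all autosomal regions was 8.11 where all probes had 45 bases. It was 11.70 at over 49 up to 51 bases and 9.78 at over 56. The part of probe length in brightness was not tested.

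The control signal of single probes belongs to what the rule used, so its spread within members is a description. The median SD of log2 control signal over the probes of a member was 0.32 on array 1 and 0.36 on array 2, against 0.58 and 0.62 over all autosomal regions and 0.87 and 0.95 in the dimmest 5%. Of the member probes, 76.7% reached the region threshold themselves, against 7.02% of all autosomal region probes. Still, 358 members had every probe at or above it and 590 had at least 1 probe below it. In 48 members the dimmest probe lay over 2 log2 units below the brightest, and in 2 members over 4 units. One of these was chr17:39453405-39455108, whose 12 probes spanned 7.11 units, and the other was chr6:114460240-114461658, whose 8 probes spanned 4.38. Their means rest mostly on very bright probes beside 1 or more much dimmer ones. The dimmest probe read 797 and 455 in C on arrays 1 and 2 in the chromosome 17 region, and 3138 and 2177 in the chromosome 6 region.

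Members were found on every one of the 19 autosomes. Chromosome 8 had the highest share, with 76 of 1145 regions (6.64%), followed by chromosome 4 with 6.17% and chromosome 17 with 6.15%. Chromosome 13 had the lowest, with 20 of 705 (2.84%), and chromosome 10 had 2.97%. Within 5 Mb of the last probe of a chromosome lay 8.54% of members and 6.87% of all autosomal regions. Within 5 Mb of the first probe, on the centromere side of mouse chromosomes, lay 2.53% and 3.21%.

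Regions next to a member were brighter than regions next to any region, and most so at short distance. At gaps up to 1 kb the neighbours of members had a median control signal of 9152, against 1349 for neighbours of all autosomal regions. At over 5 up to 20 kb the medians were 3125 and 2511, and beyond 100 kb 1234 and 651. Of the 72 neighbours up to 1 kb away 20 (27.8%) were members themselves, against 1.66% over all pairs at that distance. Such neighbours can lie on the same restriction fragment, which was not tested.

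Of the 948 members, 791 stood alone in the ordered list of regions, 124 stood in pairs and 33 in 11 runs of 3. The brightest run lay on chromosome 3, from 93367054 to 93378237, with 36 probes in 11184 bp. Beside the 2 long regions given above it holds chr3:93367054-93367685, with control signals of 30884 and 44190. A run on chromosome 17, from 39452570 to 39456571, contains the brightest member and covers 4002 bp. Similar compact runs lay on chromosome 4, from 42255752 to 42259214, and on chromosome 8, from 122498319 to 122503328. The other 7 runs covered between 25924 and 152481 bp, on chromosomes 6, 7, 8, 9, 12, 14 and 17.

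The SL channel had no part in the choice of members, although it was read from the same probes. In SL pools, 739 members (78.0%) were also in the top 5% by SL signal, and 942 (99.4%) were in the top 10%. The share in the SL top 5% was 63.6% on array 1 and 85.0% on array 2. All 209 regions of the SL top 5% that are no members came from the next 5% by control signal. For comparison, the top 5% by control signal on array 1 and on array 2 shared 711 regions (75%). Because SL and C were read from the same probes, the overlap does not show how alike the litter groups were.

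Of the 209 members outside the SL top 5%, 203 were within its top 10%. The other 6 were lower in SL by a wider margin. In 5 of them the SL signal of array 1 alone was low, as described further on. The sixth was chr4:117715587-117716516, which is described with the regions that moved alike on both arrays.

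The study's question was whether SL and C differ. Ratios are given as log2(SL/C), centred on the median of each array. No member passed the test of SL over C (limma, Benjamini-Hochberg adjusted p under 0.05), and the percentage called over all 18544 tested regions was 0. The smallest adjusted p of a member was 0.629 (limma). At an unadjusted p under 0.05 there were 5 members (0.527%), against 2.04% of all regions. The control signal that chose the members is the denominator of this ratio, so nothing is read from these counts. With a variance trend on signal, limma called 4 members, all lower in SL, against 1.05% of all regions; these are among the 5 regions with low SL signal on array 1 described below.

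The members' ratios differed between the arrays. Array 1 gave a median over members of 0.27 and array 2 one of -0.19, with an SD of 0.32 over these 2 medians. The median of the members' means over both arrays was 0.06 and thus within that spread; after loess it was -0.12. After loess normalisation, which takes out the average trend of ratio on signal, the medians were -0.26 and -0.02, so the direction on array 1 depends on the scaling. SL was above C in 58.3% of members on array 1 and in 142 members on array 2 by median centring, and in 41.0% and 43.4% of members after loess. The most frequent pattern by median centring was SL higher on array 1 and lower on array 2, in 520 members (54.9%), against 30.1% of all tested regions. SL was lower on both arrays in 286 members (30.2%, against 20.7%) and higher on both in 33 (3.48%, against 17.4%). The control signal that chose the members is the denominator of these ratios, so these shares are only descriptions.

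The brightest regions were the end of a trend. The median ratio on array 1 fell from 0.27 in the members to -0.03 in the 11th twentieth by control signal and to -0.46 among the tested regions of the dimmest twentieth. On array 2 it ran the other way, from -0.19 to 0.35. After the dye exchange this is the same direction in dye terms, with Cy5 over Cy3 highest in bright regions.

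**Figure D2:**
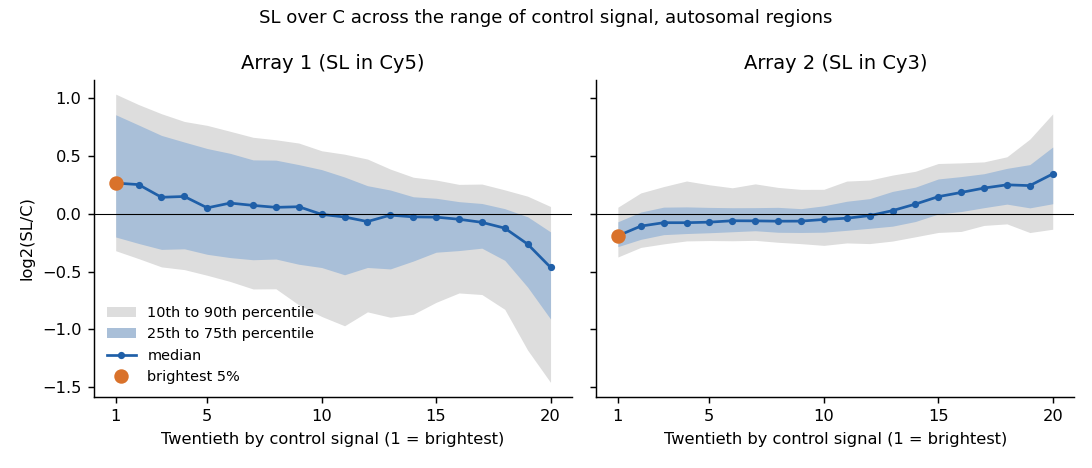
Log2(SL/C) of autosomal regions on array 1 (left) and array 2 (right) against the twentieth by control signal (1 = brightest, 20 = dimmest); the line is the median, the bands the 25th to 75th and 10th to 90th percentiles. The members (orange) have medians of 0.27 and -0.19 by median centring; after loess these are -0.26 and -0.02.

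On array 1 the members fell into a pair of clusters. There were 357 members with a log2 ratio from -0.4 up to 0 and 238 from 0.8 up to 1.2, with only 58 between 0.2 and 0.4. A division at 0.4, set after the values were seen, put 433 members (45.7%, against 22% of all tested regions) above it and 515 at or below it. The upper cluster had a median of 0.88 (quartiles 0.70 and 1.02) and the lower one -0.19 (quartiles -0.28 and -0.02). On array 2 the same sets had medians of -0.24 and -0.14 and did not separate. After loess the quartiles over all 948 members on array 1 were -0.67 and 0.29, around a median of -0.26. Per the file headers, Feature Extraction fitted a multiplicative detrend on array 1 only; its part in the clusters was not tested.

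**Figure D3:**
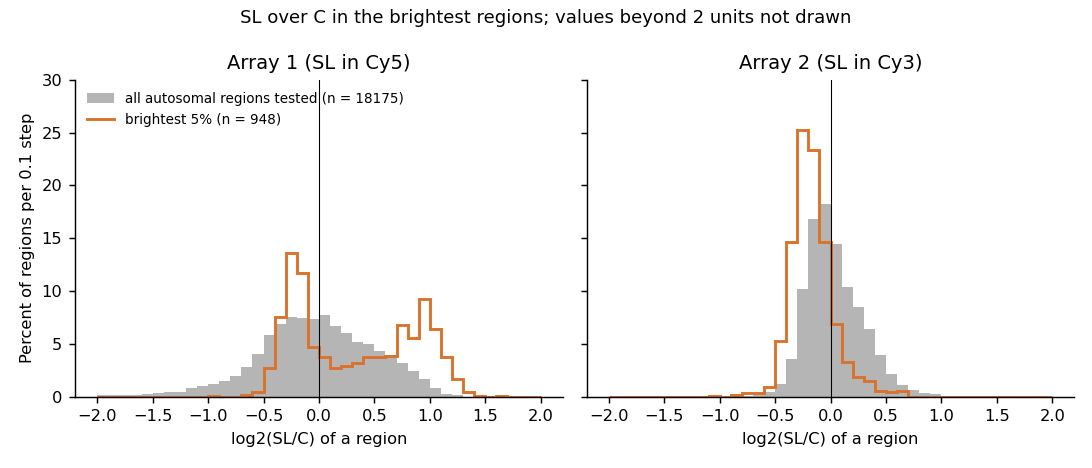
Percent of regions per 0.1 step of log2(SL/C) on array 1 (left) and array 2 (right), for all tested autosomal regions (grey) and for the 948 members (orange line). The members form 2 peaks on array 1, with medians of -0.19 and 0.88 for the sets at or below and above 0.4, and 1 peak on array 2.

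In most members, but not in all, the probes of a region lay in the same cluster. In 815 members (86.0%) every probe lay on the same side of 0.4 on array 1: in 354 all above and in 461 all at or below. The other 133 had probes on both sides. Among them was chr12:110404004-110404712, whose probes ran from -0.38 to 1.07. The same shares over all tested regions are not given here. The SD of the array 1 ratio over members was 0.60. Without the 5 members over 4-fold lower there it was 0.54. Over the probes of a member the typical SD was 0.21. On array 2 the SDs over members and over probes were 0.20 and 0.16. For neighbouring members the counts were lower. Of 24 neighbouring member pairs up to 5 kb apart 13 were on 1 side (54.2%), and of 60 pairs farther apart 38 (63.3%).

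The signals behind the clusters differed in both channels of array 1. In the upper cluster the median SL signal was 39437 on array 1 and 18225 on array 2, and the median control signal was 21118 and 21837. In the lower cluster the SL medians were 22982 and 16992, and the control medians 24430 and 18250. The division by the array 1 ratio in part fixes these values. Relative to array 2, the upper cluster had more SL signal and less control signal on array 1 than the lower one. All 433 members of the upper cluster and 306 of 515 of the lower one (59.4%) were in the SL top 5%, a ranking in which the array 1 signal takes part.

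Probe length moved with the clusters, and its part in them was not tested. Of the 45 members whose probes all had 45 bases, 88.9% lay in the upper cluster; the share was 56.3% at mean lengths over 47 up to 49 bases, 23.4% at over 51 up to 53 and 7.32% at over 56. On array 2 the median ratio stayed between -0.20 and -0.15 in all 7 length classes. Both sets held 45-base and 60-base probes. Their array 1 ratios, which the division itself sets apart, are given only as a description. The 45-base probes had a median array 1 ratio of 0.91 in upper-cluster members (985 probes) and -0.11 in lower-cluster members (510 probes). The 60-base probes had 0.88 (108 probes) and -0.19 (337 probes).

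**Figure D4:**
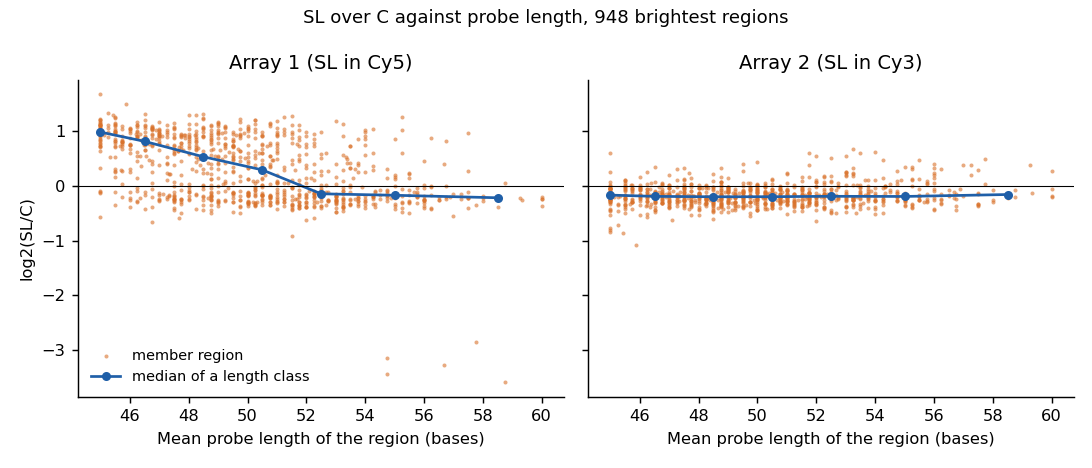
Log2(SL/C) of each member (orange) on array 1 (left) and array 2 (right) against the mean length of its probes in bases; blue points are medians of 7 length classes. On array 1 the class medians run from 0.99 at 45 bases to -0.21 above 56 bases; on array 2 all 7 lie between -0.20 and -0.15, in no order of length.

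The clusters were not limited to the members. In the next 5% by control signal 433 of 948 regions (45.7%) also lay above 0.4 on array 1, with 325 from -0.4 up to 0 and 209 from 0.8 up to 1.2. Between chromosomes the share of members in the upper cluster ran from 16.0% on chromosome 18 (4 of 25) and 20.7% on chromosome 12 (6 of 29) to 57.1% on chromosome 17 (32 of 56) and 59.1% on chromosome 19 (13 of 22). Members chosen on array 2 alone, so that the array 1 ratio was not used, had a median array 1 ratio of 0.56, with 56.6% above 0.4 and 29.1% from -0.4 up to 0. Members chosen on array 1 alone had a median array 2 ratio of -0.17. Both ranges of the array 1 ratio were filled here too. However, 838 of the regions chosen on array 2 alone were also members by both arrays. The division at 0.4 was set on the members' array 1 values, so this is not a separate check of the clusters.

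Apart from both clusters stood 5 members with very low SL signal on array 1, each over 4-fold below C there. They were singled out after their values were seen, and 1.89% of all tested regions passed the same fold. The region chr16:22057667-22057971 gave SL signals of 2002 on array 1 and 14394 on array 2, against 23436 and 15605 in C. The region chr4:102426782-102427353 gave SL signals of 2450 and 13038, against 25650 and 14625. Both were an order of magnitude darker in SL on array 1 and near C on array 2.

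The remaining regions of this set behaved likewise. On chromosome 4 again, chr4:98854715-98855061 gave 2519 and 12449 in SL against 23559 and 13752 in C. The region chr6:91639937-91640361 gave 3023 and 14773 against 26023 and 14166, and chr12:76965289-76965564 gave 3363 and 14497 against 23687 and 14615. Their log2(SL/C) lay between -3.59 and -2.86 on array 1 and between -0.12 and 0.10 on array 2, whereas the lowest array 1 value among the other 943 members was -0.91. All probes of these 5 regions were lower in SL on array 1, but not evenly. In chr16:22057667-22057971 the probe ratios ran from -4.72 to -1.70, and in chr12:76965289-76965564 from -3.04 to -2.55. These differences were seen on 1 of 2 arrays and have no replicate.

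**Figure D5:**
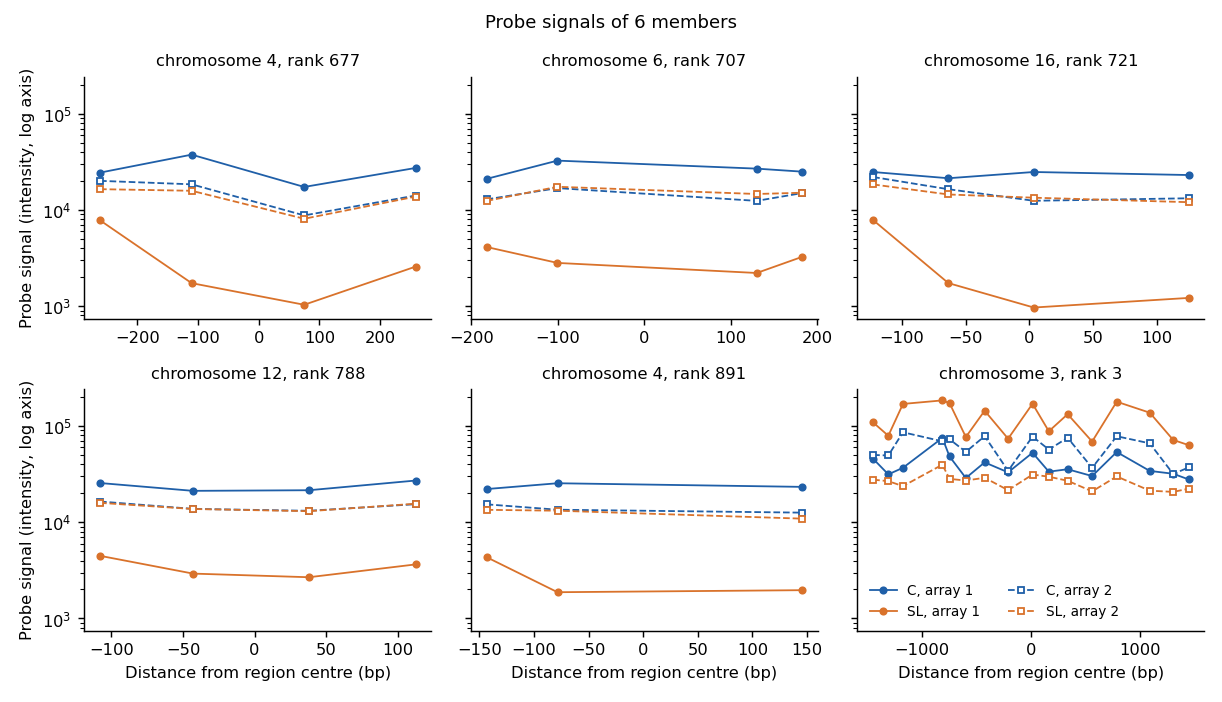
Signal of each probe (intensity, log axis) against its distance from the region's centre in bp, for the 5 members with low SL signal on array 1 and, at bottom right, the chromosome 3 member of rank 3; blue is C, orange is SL, filled circles are array 1 and open squares array 2. SL on array 1 lies below the other 3 lines at every probe of the 5 regions, and above them in the chromosome 3 region.

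Set as Cy5 over Cy3, 10 members (1.05%, against 2.59% of all tested regions) passed limma at an adjusted p under 0.05, 5 in each direction. The percentage called over all tested regions was 2.56 for Cy3 above Cy5 and 0.0324 for Cy5 above Cy3, and 5 of the 6 regions called in the latter direction were members. Control signal enters this contrast as well, so the counts are descriptions. Here limma pooled the variance fully and gave every region the same SE of 0.306. A region's own spread between the arrays thus did not enter these p-values, which follow the size of the mean. The 5 with Cy3 above Cy5 were the regions with low SL signal on array 1 (mean log2(Cy5/Cy3) from -1.76 to -1.44). In these 5 regions array 2 lay near 0, so the mean rests on array 1.

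The 5 with Cy5 above Cy3 lay in 2 places. On chromosome 3 they were chr3:93368485-93371415 (mean 1.28, limma adjusted p = 0.00157), chr3:93375397-93378237 (1.08, limma adjusted p = 0.0187) and chr3:93367054-93367685 (0.99, limma adjusted p = 0.0465). On chromosome 13 they were chr13:65761234-65761582 (1.26, limma adjusted p = 0.00219) and chr13:65675781-65676439 (1.02, limma adjusted p = 0.0366). Their log2(SL/C) lay between 1.21 and 1.68 on array 1 and between -1.07 and -0.70 on array 2, so the mean over arrays stayed between 0.21 and 0.42. After loess none of these 5 was called. Past 1.5-fold in opposite directions with Cy5 above Cy3 were 9 members (0.949%), against 0.0809% of all tested regions; with Cy3 above Cy5 there were 0, against 2.21%.

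Differences that ran the same way on both arrays are given as a description. Control signal chose the members and is the denominator of the ratio, so nothing is read from the counts. On both arrays in 1 direction, 0 members were past 1.5-fold, against 0.221% of all tested regions. Past a log2 ratio of 0.32 in size were 3 members, each lower in SL (0.316%, against 1.23%); higher were 0 (against 0.226%).

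Among members lower in SL on both arrays, ranked by the smaller of the 2 ratios in size, chr4:117715587-117716516 came first. Its 4 probes gave SL signals of 17074 and 10887 against control signals of 21491 and 15338. Its log2(SL/C) was -0.37 and -0.45, a mean of -0.41 ± 0.33 (limma's moderated SE, n = 2). Every probe was lower in SL on both arrays, between -0.51 and -0.22. The mean was slightly larger than this SE, which comes mainly from variance pooled over all regions and not from the distance between this region's 2 values. Next, chr5:140173920-140174020 had -0.34 and -0.35 over 2 probes, chr2:164464546-164464960 had -0.42 and -0.32, and chr12:109317975-109318269 had -0.36 and -0.32. Their means lay between -0.37 and -0.34 with SEs of 0.33.

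On the higher side, chr13:49186410-49186741 led by the smaller of its 2 ratios, with SL signals of 25896 and 19634 against 21460 and 16364 in C. Its log2(SL/C) was 0.23 and 0.30, a mean of 0.27 ± 0.33 (limma's moderated SE, n = 2), and every probe was above 0 on both arrays. In chr7:25043428-25043802 the ratios were 0.67 and 0.20, in chr14:50816811-50817345 0.75 and 0.16, and in chr19:44579912-44580158 0.41 and 0.11. In each of these last regions the lowest probe ratio on array 2 lay just below 0. None of these 8 regions passed the test. The mean over arrays kept its direction after loess in all 8, though in chr13:49186410-49186741 it fell to 0.11. Whether the ratios of each array still ran alike after loess was not examined. Loess moved the median array 1 ratio over members from 0.27 to -0.26, so this agreement may depend on the scaling.

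A further 5 members were past 1.5-fold higher in SL on array 2 (0.527%, against 3.61%), and all 5 were lower on array 1. The clearest was chr12:110435144-110435337, where the control signal was 34899 on array 1 and 18252 on array 2 while SL held at 28609 and 28458. Its 4 probes lay between -0.38 and -0.29 on array 1 and between 0.65 and 0.71 on array 2. The neighbouring members chr12:110403239-110403474, with -0.23 and -0.27, and chr12:110404004-110404712, with 0.58 and -0.22, did not share this pattern.

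Control DNA itself differed between the arrays by a median of 0.22 log2 units (array 1 minus array 2; SD over members 0.29), against 0.66 over all autosomal regions. The members farthest from the median were chr13:65761234-65761582, with 34162 and 61406, chr5:111230028-111230305, with 29316 and 12971, and chr1:40221988-40222434, with 28133 and 12751. In the first of these C was brighter in Cy5, on array 2, and in the others in Cy3, on array 1. The regions named here are extremes, whereas the median and SD describe the members as a set. C changed dye between the arrays and may have come from different pools. Dye, array and pool thus cannot be told apart in these differences.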

How the data were processed

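Per the file headers, the authors extracted spot intensity values with Agilent Feature Extraction 10.5.1.1 (the submitters' processing notes name 9.1.3.1), as background-subtracted, dye-normalised processed signals. A multiplicative detrend was fitted on array 1 only. The deposited log10 ratio column and the authors' deposited value table (log10, array 2 turned to SL over C) differed by less than 0.005. From each array 90535 genomic spots on mm8 were used, less 44 with an outlier flag on either array, with repeat spots averaged. Regions, control signal and membership follow the rule in the text. For ratios, each array had to show the probe well above background in 1 channel or more, which kept all 948 members. Region means of log2(SL/C), centred per array, were fitted with limma 3.58.1 in R 4.3.3 over 18544 regions with at least 2 such probes (intercept only, eBayes, two-sided, Benjamini-Hochberg), and likewise Cy5 over Cy3. SE is limma's moderated one. Only 2 arrays limit the precision. The members, the rules for named regions and the alternatives were chosen with earlier results of these data known. Named were the 8 brightest members, 4 per direction moving alike on both arrays or with most extreme dye ratio, the 3 with most probes (the last tied with 4 more), those at the threshold, runs of neighbours and the 3 with most different control signal; regions low on array 1 or higher on array 2, called in the dye contrast or with the widest probe range were added after seeing values. Gene lists were planned but not used, since the files name no genes.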

Additional observations from a re-analysis of the deposited data

How the results depend on the processing

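The count of 0 members called for SL over C became 3 with normexp background correction, 3 with medians over probes and 4 with a variance trend on signal; all were regions low on array 1 only. It stayed at 0 in the other settings run with a test. The 10 members called for Cy5 over Cy3 became 17 with normexp, 5 with loess, 5 in the top 1%, 18 in the top 10% and 5 with members chosen by array 2 alone. The 0 members past 1.5-fold the same way became 3 past a log2 ratio of 0.32 in size; with either array left out, no test being possible then, 14 to 377 were past 1.5-fold on the other. The median log2(SL/C) over members, 0.06, became 0.56 on array 1 for members chosen by array 2, and ranged from -0.19 to 0.27 with 1 array left out; the array 1 median of 0.27 became -0.26 with loess. The 78.0% of members in the SL top 5% became 57.9% for the top 1% of both, and 63.6% to 85.0% with 1 array left out. For each of these changes the cause was not tested. Of 348 values of 58 named members under the settings that keep the members, 18 moved by more than the SD over arrays, 11 of them with loess. Normexp used the median pixel signals, as the files hold no mean signals. No paired analysis was possible because there is 1 group of arrays and each ratio already pairs SL with C.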

Other observations

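The rule leaves out the sex chromosomes and lone probes, and some of these were as bright. On chromosome X 18 of 395 regions (4.56%) reached the members' threshold, and on chromosome Y 0 of 11 did. The brightest was chrX:98003502-98004003, with control signals of 29250 and 37593 and SL signals of 68914 and 24579. Close to it, chrX:97990431-97990923 had a log2(SL/C) of 1.23 and -0.55. Others lay in the lower range on array 1, such as chrX:99035892-99036485 with -0.11 and -0.15, so both clusters of array 1 ratios were represented there. Of 3631 lone autosomal probes 43 (1.18%) reached the threshold, and the brightest had a mean control signal of 75170, above that of any member region.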
